A study of Rattus norvegicus with 15 samples.

Results

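The 4 receptors of the ERBB family (EGFR, ERBB2, ERBB3 and ERBB4) and 6 of their ligands (AREG, HBEGF, EREG, TGFA, BTC and NRG1) were followed by name through bulk RNA-seq of rat mammary tumours, as 10 of the 17463 genes counted. The tumours came from Fischer rats in 2 groups. In the midkine group (9 libraries), rats received recombinant midkine, a secreted heparin-binding growth factor, at 300 ug/kg 3 times a week during the 2 weeks before each of 2 intraperitoneal doses of N-nitroso-N-methylurea (NMU) at 50 mg/kg. In the vehicle group (6 libraries), rats received vehicle, whose makeup the labels do not give, and both groups carried tumours raised with the same carcinogen, so no library shows tissue without NMU. Each library was made from a small piece of tumour, without separation of cell types, and the labels give no age. Some titles share a number (midkine 3-1 and 3-2, midkine 4-1 to 4-3, vehicle 2-1 and 2-2) and no label says whether such libraries came from 1 animal, so every p-value here measures the spread between libraries.

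ERBB receptors are cell surface tyrosine kinases that pair with each other when a ligand binds and then signal through the RAS-ERK and PI3K routes. AREG, HBEGF, EREG, TGFA and BTC are made as membrane-bound precursors, are cut free by ADAM proteases and bind EGFR, and HBEGF, EREG and BTC bind ERBB4 as well. NRG1 binds ERBB3 and ERBB4; ERBB2 has no ligand of its own and serves as the favoured partner, and ERBB3, whose kinase is nearly inactive, depends on such a partner. In the mammary gland EGFR and its ligand AREG are needed for ductal growth, and ERBB4 is known for its part in milk production.

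The stretches just upstream of 5 of the genes are shown because the results turn on these genes: HBEGF and TGFA stood highest in 1 midkine tumour, NRG2 lay lowest in that same tumour, and AREG and BTC followed each other across libraries. Each line gives 250 bases before the annotated start, 5′ to 3′ on the gene's strand, from RefSeq for the GRCr8 rat assembly, which is not the rn6 build of the count table. The windows are chr18:28390221-28390470 (minus strand) for HBEGF, chr18:28072539-28072788 (minus) for NRG2, chr4:120175469-120175718 (plus) for TGFA, chr14:17265642-17265891 (minus) for AREG and chr14:16992418-16992667 (plus) for BTC. Capitals mark matches to 5 short motifs searched on both strands.
HBEGF: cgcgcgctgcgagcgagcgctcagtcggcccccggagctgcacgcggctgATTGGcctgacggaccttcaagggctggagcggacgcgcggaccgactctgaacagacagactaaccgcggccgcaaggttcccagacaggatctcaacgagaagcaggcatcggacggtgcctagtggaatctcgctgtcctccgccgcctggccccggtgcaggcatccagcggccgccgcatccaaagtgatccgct
NRG2: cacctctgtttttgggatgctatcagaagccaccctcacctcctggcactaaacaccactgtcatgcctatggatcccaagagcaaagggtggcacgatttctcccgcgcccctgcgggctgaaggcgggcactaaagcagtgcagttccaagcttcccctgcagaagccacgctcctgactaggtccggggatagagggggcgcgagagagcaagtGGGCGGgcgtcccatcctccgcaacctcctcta
TGFA: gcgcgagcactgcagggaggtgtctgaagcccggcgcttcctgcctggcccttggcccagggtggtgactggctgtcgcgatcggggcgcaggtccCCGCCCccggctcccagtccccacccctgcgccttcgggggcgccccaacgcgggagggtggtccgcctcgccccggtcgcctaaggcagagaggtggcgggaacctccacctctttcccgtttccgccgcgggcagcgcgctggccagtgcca
AREG: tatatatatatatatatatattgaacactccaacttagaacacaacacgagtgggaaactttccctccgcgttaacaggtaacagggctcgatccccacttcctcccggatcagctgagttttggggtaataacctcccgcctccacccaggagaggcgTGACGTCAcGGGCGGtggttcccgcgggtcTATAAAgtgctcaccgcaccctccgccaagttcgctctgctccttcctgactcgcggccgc
BTC: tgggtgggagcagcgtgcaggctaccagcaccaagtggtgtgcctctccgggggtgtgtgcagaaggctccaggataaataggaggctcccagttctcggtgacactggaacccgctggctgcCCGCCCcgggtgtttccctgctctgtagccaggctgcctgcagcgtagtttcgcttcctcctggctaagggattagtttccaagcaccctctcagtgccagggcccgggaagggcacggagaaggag
The motifs were the AP-1 site TGAGTCA, the cyclic AMP response element (CRE) TGACGTCA, the TATA box TATAAA, the GC box GGGCGG and the CCAAT box CCAAT, none of which overlapped another in these windows. Of all 33469 annotated windows of this length, 4.05% held the AP-1 letters, 1.59% the CRE, 12.9% the TATA box, 30.5% the GC box and 34.0% the CCAAT box. The AREG window held a CRE whose first base lies 91 bases upstream, a GC box at 82 bases and a TATA box at 61 bases. The HBEGF window held 1 CCAAT box, at 200 bases, and the TGFA, BTC and NRG2 windows held 1 GC box each, at 154, 127 and 33 bases. Windows were found for 7 of the 10 members, and the AP-1 letters were in none of those 7. A match describes the letters of the window and not a bound site.

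All 10 members passed the filter on low counts, which left 11665 genes for testing. Levels are counts per 1000000 counts of the library after TMM scaling (CPM), which are not per length, so levels are compared between libraries and not between genes. Library totals ran between 4925504 and 8486523 counts. After TMM, 1 CPM stood for 4.20 counts in midkine 1, whose scaling factor of 0.558 was the lowest and raises all its levels, and for 5.04 to 8.56 counts in the other libraries. No member passed an adjusted p of 0.05 in edgeR's quasi-likelihood test of midkine against vehicle, and neither did any other gene (percent called 0 in each direction; smallest adjusted p 0.399). At an unadjusted p under 0.05 there were 2 of 10 members, HBEGF higher and ERBB2 lower in midkine tumours, beside 10.1% of all genes in either direction, 7.96% higher and 2.13% lower. A count of 1 member in each direction is not read as standing apart from these shares. For no member were the groups free of overlap, which held for 0.0171% of genes.

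**Figure D1:**
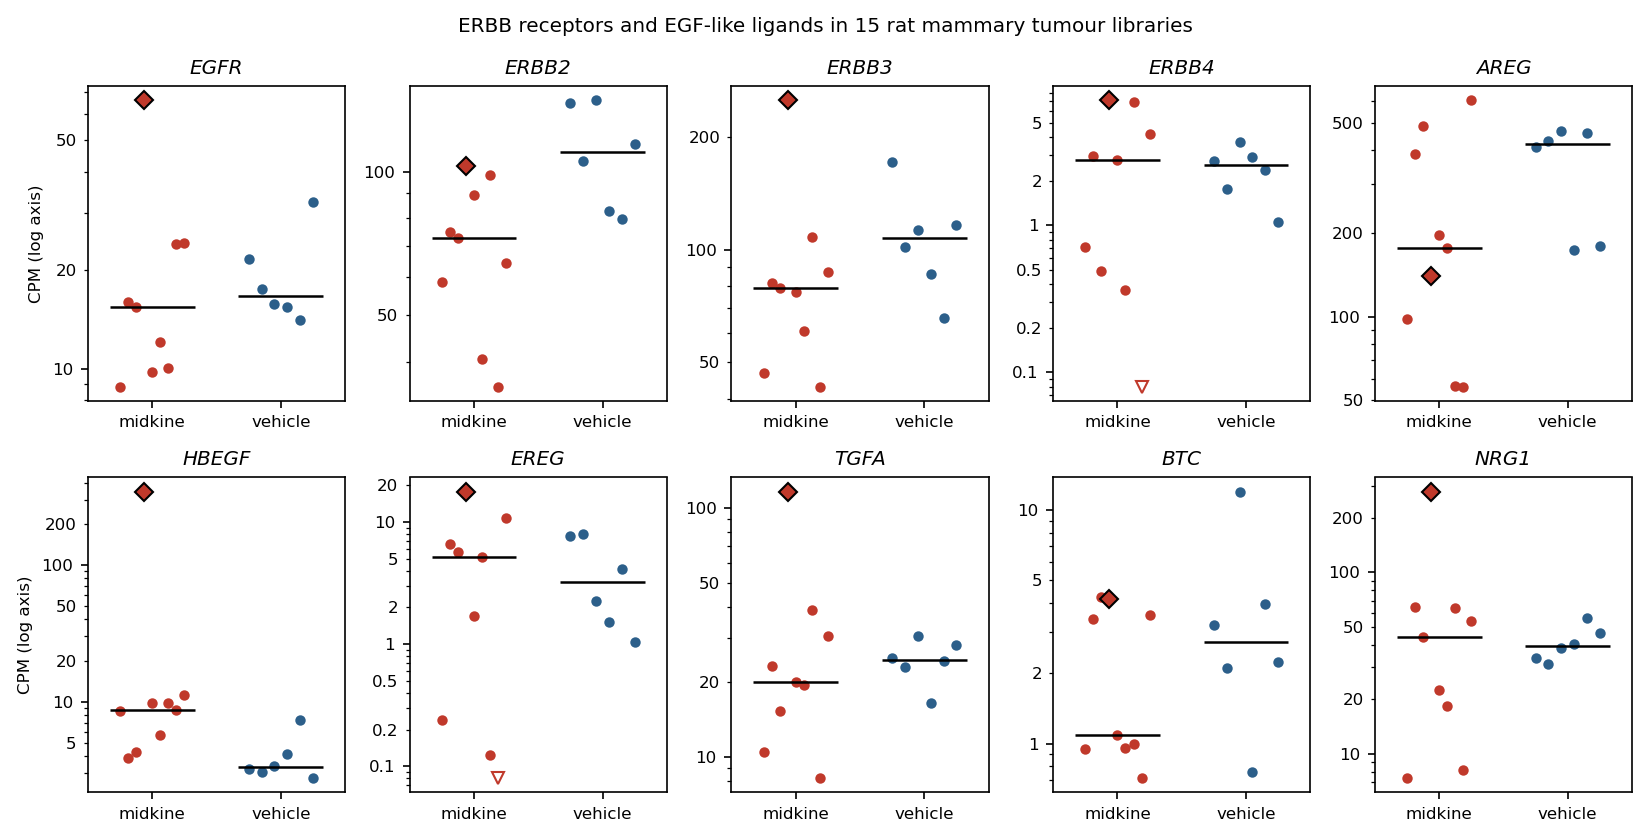
Levels of the 10 members (CPM, log axis) in each midkine library (red, left) and vehicle library (blue, right), with the group median as a line; the red diamond is midkine 3-2 and open triangles at the bottom are values of 0. Midkine 3-2 is the highest point for 7 of the 10 genes, with HBEGF at 344 CPM against at most 11.1 CPM elsewhere, and all ERBB2 midkine points lie below the vehicle median.

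Among the receptors, ERBB2, the ligandless partner and the oncogene amplified in a class of human breast cancers, had the clearest shift of level. It measured 58.8, 74.5, 72.6, 103, 89.3, 40.4, 98.4, 35.4 and 64.3 CPM in the midkine libraries 1, 2, 3-1, 3-2, 4-1, 4-2, 4-3, 5 and 6, and 139, 105, 141, 82.7, 79.5 and 114 CPM in the vehicle libraries 2-1, 2-2, 3, 4, 5 and 6. All 9 midkine libraries lay below the vehicle median and 6 of them below the lowest vehicle library, while the other 3 overlapped the vehicle range. The mean level was 70.7 ± 23.7 CPM in midkine tumours and 110 ± 26.6 CPM in vehicle tumours (SD, n = 9 and 6), a log2 fold change of -0.64 ± 0.23 (SE) with an unadjusted p of 0.0135 and an adjusted p of 0.399 from edgeR's quasi-likelihood fit. Leaving out any 1 library kept the log2 fold change between -0.73 and -0.55.

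ERBB3, the receptor for neuregulins that signals through a partner, was spread more widely. Its midkine libraries, in the same order, held 46.9, 81.3, 78.9, 251, 77.0, 60.9, 108, 43.1 and 87.1 CPM, and its vehicle libraries 171, 102, 113, 86.4, 65.6 and 116 CPM. Midkine 3-2 stood above every other library, and 7 of 9 midkine libraries lay below the vehicle median. The log2 fold change was -0.23 ± 0.34 (edgeR adjusted p = 0.873) over all libraries and -0.58 ± 0.23 without midkine 3-2 (adjusted p = 0.478).

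EGFR, the receptor shared by the EGF-like ligands, measured 8.81, 16.0, 15.4, 66.2, 9.78, 12.0, 10.05, 24.0 and 24.3 CPM in midkine tumours and 21.6, 17.5, 15.8, 15.5, 14.1 and 32.4 CPM in vehicle tumours. The groups overlapped, with the highest value in midkine 3-2 and the 4 lowest in midkine 1, 4-1, 4-3 and 4-2. Its log2 fold change was 0.09 ± 0.42 (edgeR adjusted p = 0.966), and -0.37 ± 0.28 without midkine 3-2.

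ERBB4, a receptor for neuregulins and for some EGF-like ligands, was scarce. It gave 0.714, 2.98, 0.492, 7.08, 2.80, 0.361, 6.95, 0 and 4.15 CPM in midkine tumours and 2.73, 1.75, 3.66, 2.90, 2.38 and 1.05 CPM in vehicle tumours. The 0 in midkine 5 allows a level of up to 0.534 CPM (3 counts; counting error only). Midkine tumours thus held both the 3 highest and the 4 lowest libraries, and the log2 fold change was 0.25 ± 0.71 (edgeR adjusted p = 0.943).

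**Figure D2:**
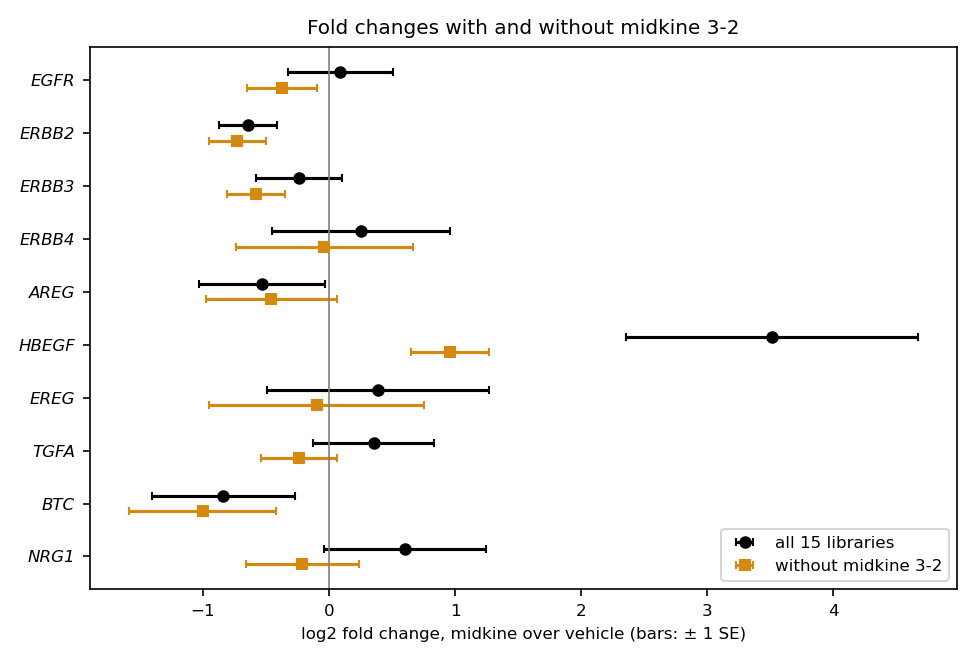
Log2 fold change of midkine over vehicle for each member (points, bars ± 1 SE, edgeR), over all 15 libraries (black) and without midkine 3-2 (orange). HBEGF moves to 0.96 without that library, against 3.51 with it, while ERBB2 stays at -0.73 against -0.64.

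HBEGF, the heparin-binding ligand of EGFR and ERBB4, stood far apart in 1 library. Its midkine libraries held 8.57, 3.88, 4.26, 344, 9.78, 5.65, 9.80, 8.73 and 11.1 CPM, and its vehicle libraries 3.23, 3.04, 3.38, 4.16, 7.33 and 2.75 CPM. The level in midkine 3-2 rested on 2821 counts, against 21 to 91 counts in the other 14 libraries. All 9 midkine libraries lay above the vehicle median and 6 of them above the highest vehicle library. Without TMM scaling midkine 1, 1 of these 6, was at 4.73 CPM, below vehicle 5 at 7.51 CPM, and midkine 5 was at 7.75 CPM. The median level was 8.73 CPM in midkine tumours and 3.30 CPM in vehicle tumours. The log2 fold change was 3.51 ± 1.16 (unadjusted p = 0.00786, edgeR adjusted p = 0.399). Without midkine 3-2 the mean was 7.72 ± 2.74 CPM in midkine tumours (SD, n = 8) and 3.98 ± 1.71 CPM in vehicle tumours (SD, n = 6), a log2 fold change of 0.96 ± 0.31 (unadjusted p = 0.00749, edgeR adjusted p = 0.463). DESeq2, which replaces outlying counts in groups as large as the midkine group, gave 0.95 ± 0.31 over all libraries (adjusted p = 0.0942); it called 0.633% of its 13595 genes higher and 0.0441% lower, and none of them was a member.

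AREG, the EGFR ligand of ductal growth, had 98.1, 385, 488, 140, 198, 177, 56.3, 56.1 and 603 CPM in midkine tumours and 409, 429, 467, 175, 461 and 180 CPM in vehicle tumours. The midkine libraries spread beyond both ends of the vehicle range, in which 4 libraries lay at 409 CPM or more and 2 at 180 CPM or less. Its log2 fold change was -0.53 ± 0.50 (edgeR adjusted p = 0.780).

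TGFA, an EGFR ligand made by epithelial cells, had 10.5, 23.1, 15.2, 116, 19.9, 19.4, 39.0, 8.19 and 30.6 CPM in midkine tumours and 24.9, 22.9, 30.5, 16.4, 24.2 and 28.2 CPM in vehicle tumours. Of the midkine libraries, 3 lay above the narrow vehicle range and 3 below it. The log2 fold change was 0.36 ± 0.48 (edgeR adjusted p = 0.862), and -0.24 ± 0.30 without midkine 3-2.

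NRG1, a neuregulin that binds ERBB3 and ERBB4, had 7.38, 64.3, 43.9, 278, 22.5, 18.4, 63.9, 8.19 and 54.3 CPM in midkine tumours and 33.8, 31.2, 38.3, 40.3, 55.9 and 46.6 CPM in vehicle tumours. The highest and lowest midkine libraries differed 37.6-fold and the highest and lowest vehicle libraries 1.79-fold. The log2 fold change was 0.61 ± 0.64 (edgeR adjusted p = 0.815), and -0.21 ± 0.45 without midkine 3-2.

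EREG and BTC, which bind both EGFR and ERBB4, were the scarcest member ligands by count. EREG gave 0.238, 6.56, 5.74, 17.7, 1.71, 5.17, 0.124, 0 and 10.9 CPM in midkine tumours and 7.71, 7.95, 2.25, 1.51, 4.16 and 1.05 CPM in vehicle tumours, with overlapping groups and a log2 fold change of 0.39 ± 0.88 (edgeR adjusted p = 0.919). BTC gave 0.952, 3.43, 4.26, 4.15, 1.09, 0.962, 0.992, 0.712 and 3.54 CPM in midkine tumours and 3.23, 2.10, 12.0, 0.755, 3.96 and 2.23 CPM in vehicle tumours. The midkine libraries of BTC fell into 5 at or below 1.09 CPM and 4 at or above 3.43 CPM. Its log2 fold change of -0.84 ± 0.57 (edgeR adjusted p = 0.666) became -0.12 without vehicle 3.

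Of the family's other ligands, NRG2, NRG4, EGF and EPGN were in the table. NRG2, a second neuregulin, had 12.1, 125, 46.6, 3.05, 36.6, 12.3, 71.6, 20.5 and 60.3 CPM in midkine tumours and 78.1, 85.0, 45.2, 50.7, 75.5 and 46.5 CPM in vehicle tumours. Its log2 fold change was -0.56 ± 0.56 (edgeR adjusted p = 0.794). EGF reached 15.0002 CPM in midkine 1 and stayed between 0.722 and 2.67 CPM in the other midkine libraries, against 1.12 to 2.39 CPM in vehicle libraries. EPGN had 50 counts in midkine 3-2 and at most 4 in any other library, and NRG4 had 1 to 31 counts; neither passed the filter.

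Midkine 3-2 had the highest level of 15 libraries for 7 of the 10 members, namely EGFR, ERBB3, ERBB4, HBEGF, EREG, TGFA and NRG1, where 20.6% of all genes tested were highest in it and 27.6% lowest. Its level over that of the next highest library was 31.0 for HBEGF, which ranked 11 of 11665 genes by this ratio. The ratio was 4.32 for NRG1, 2.97 for TGFA, 2.05 for EGFR, 1.63 for EREG, 1.46 for ERBB3 and 1.02 for ERBB4. AREG at 140 CPM and BTC at 4.15 CPM were inside the range of the other libraries, and so was ERBB2 at 103 CPM. NRG2 was lowest there, at 3.05 CPM against 12.1 to 125 CPM in the other 14 libraries.

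The order of genes along the GRCr8 assembly places these contrasts side by side. On chromosome 14, Btc, Areg, Ereg, Epgn, Mthfd2l, Cxcl2 and Cxcl1 follow each other. Within this stretch, midkine 3-2 was highest for EREG (17.7 CPM against at most 10.9), EPGN, MTHFD2L (9.28 against at most 6.94 CPM) and the neutrophil-attracting chemokines CXCL2 (1059 against at most 4.81 CPM) and CXCL1 (2643 against at most 19.7 CPM), and not for BTC or AREG. These 2 chemokines had the largest and the next largest ratio to the next highest library among all genes tested. On chromosome 18, Nrg2 and Hbegf, lowest and highest in that library, lie with 5 annotated genes between them. One of these, PFDN1, a subunit of the prefoldin chaperone, was 55.2 CPM in midkine 3-2 and 81.5 to 228 CPM elsewhere. The chemokines, MTHFD2L and PFDN1 were chosen after their values had been seen.

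**Figure D3:**
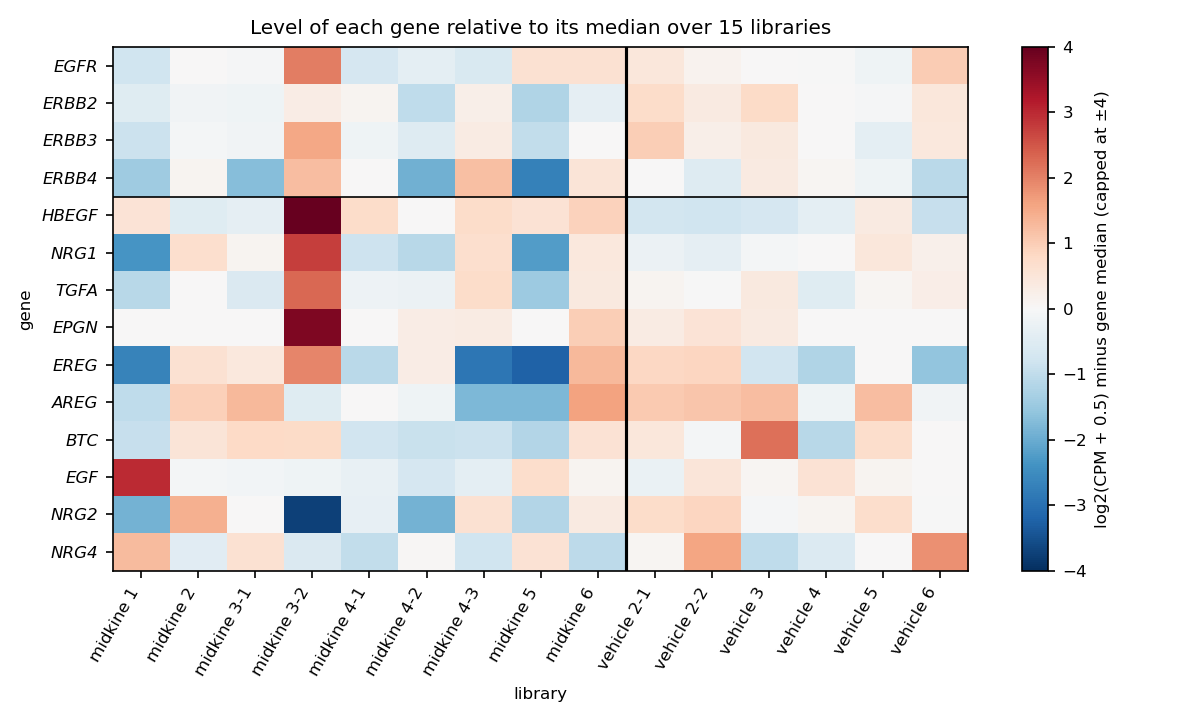
Levels of the members and of the other EGF-family ligands (rows) in each library (columns, midkine left of vehicle), as log2(CPM + 0.5) minus the gene's median over the 15 libraries, with colours capped at ± 4. The midkine 3-2 column is the one with the most rows above their median by a wide margin, with NRG2 far below; midkine 1, midkine 5 and midkine 4-2 carry most of the low cells.

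The lowest library was midkine 5 for 7 of the 10 members (ERBB2, ERBB3, ERBB4, AREG, EREG, TGFA and BTC), where 9.68% of all genes tested were lowest in it, and midkine 1 for EGFR and NRG1, where 16.5% of all genes were lowest in it. This count depends on TMM scaling, which raises midkine 1. Without it, midkine 1 was below midkine 5 for ERBB3 (25.9 against 38.3 CPM), TGFA (5.78 against 7.28) and BTC (0.525 against 0.633). In midkine 5 the summed level of 12 fibroblast markers was 131515 CPM, against at most 8999.7 CPM in vehicle libraries. Most of that sum was COL1A1 (82114 CPM) and COL3A1 (44905 CPM). The mean log2 level of the 11 fibroblast markers that passed the filter was 9.57 in midkine 5 and at most 7.18 in vehicle libraries. In midkine 1 the summed level of 11 skeletal muscle markers was 398390 CPM, against 434 to 908 CPM in vehicle libraries. Summed over 12 of 13 listed epithelial markers, such as EPCAM and CDH1, midkine 1, 4-2 and 5 held 2807, 3434 and 3463 CPM and midkine 3-2 and 4-3 held 13631 and 13022 CPM, against 6331 to 8923 CPM in vehicle libraries. In midkine 3-2, CLDN4 made up 4494 CPM of this sum, and it reached at most 559 CPM in any other library. The mean log2 level of these markers was 9.22 in midkine 3-2, 9.35 in midkine 4-3 and 8.44 to 8.96 in vehicle libraries. In bulk tissue, fewer cells of a type and less RNA per cell cannot be told apart. Macrophage markers summed to 617 to 3563 CPM in midkine and 439 to 1076 CPM in vehicle libraries, and T cell markers to 36.4 to 1532 CPM in midkine and 35.6 to 102 CPM in vehicle libraries. Neutrophil markers summed to 6.43 to 211 CPM in midkine and 10.2 to 38.1 CPM in vehicle libraries, the highest being midkine 3-2, where IL1B made up 186 CPM, and the neutrophil receptor FPR1 was at 0 in all libraries. Basal and myoepithelial markers summed to 2533 to 19895 CPM in midkine and 6460 to 14046 CPM in vehicle libraries, with midkine 3-2 at 4378 CPM and its TP63 at 24.7 CPM, against 65.3 CPM or more in the other 14 libraries. Hormone-sensing luminal markers, such as ESR1 and PGR, summed to 257 to 1849 CPM in midkine and 598 to 1766 CPM in vehicle libraries, lowest in midkine 5. All 8 of them that were tested had a negative log2 fold change (median -0.70), as ERBB2 did, where 5171 of all 11665 genes did. None of the 8 passed the threshold. Negative too were 10 of 12 basal and myoepithelial (median -0.38) and 9 of 12 epithelial genes (median -0.19). Positive were 9 of 9 T cell (median 2.43), 10 of 11 fibroblast (1.45), 11 of 12 macrophage (0.96) and 9 of 9 endothelial genes (0.76). All tested neutrophil, adipocyte and skeletal muscle genes were positive, and 4 of 8 Schwann cell genes. With the epithelial level as a covariate, an alternative chosen after seeing the data, the log2 fold change was -0.48 ± 0.16 for ERBB2, -0.06 ± 0.22 for ERBB3 and 3.16 ± 0.87 for HBEGF. MYH4, a muscle myosin, had 688 to 993 counts in vehicle libraries and 0 or 1 in midkine 3-1, 3-2, 4-1, 4-2 and 4-3. The 10 libraries with more than 1 count were midkine 1, 2, 5 and 6 and all 6 vehicle libraries, so without midkine 3-2. All libraries left out were midkine ones, so this split follows the groups in part. Its cause was not tested. In these 10 libraries the log2 fold change was -0.91 ± 0.24 for ERBB2, -0.74 ± 0.29 for ERBB3 and 1.04 ± 0.37 for HBEGF. None of these passed an adjusted p of 0.05 in edgeR.

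The genes that surround the receptors in the pathway were taken from fixed lists. None of them passed the threshold between midkine and vehicle tumours, so each list is described by its signs and its median log2 fold change, beside 0.04 over all 11665 genes. Of 8 genes of ligand release, 5 had a positive and 3 a negative log2 fold change, and the median of 0.10 became -0.15 without midkine 3-2. ADAM17, the main sheddase of HBEGF and TGFA, had 0.30 ± 0.23 (0.06 without midkine 3-2) and RHBDF1, a partner in ADAM17 maturation, -0.29 ± 0.16. Of 12 receptor adaptors, 8 were positive (median 0.14), among them GRB2, which links receptors to RAS activation, at 139 ± 59.5 CPM in midkine and 94.4 ± 16.0 CPM in vehicle tumours (log2 fold change 0.56 ± 0.23), and CRK at 0.64 ± 0.39. Without midkine 3-2 these were 0.38 and 0.16. Of 11 inhibitors and turnover genes, 5 were positive (median -0.01), with the ubiquitin ligase CBLB at 0.92 ± 0.47 and the phosphatase PTPN12 at 0.49 ± 0.28, against 0.39 and 0.18 without midkine 3-2. Of 4 receptor partners 3 were positive (median 0.08), with CD44, a surface protein that binds hyaluronan, at 1.24 ± 0.58 (0.58 ± 0.40 without midkine 3-2) and CD9 at -0.25 ± 0.19. At an unadjusted p under 0.05 these lists held 1 of the 12 adaptors, GRB2, and 1 of the 4 partners, CD44, both higher. The 8 ligand release and 11 inhibitor and turnover genes held 0, beside 7.96% of all genes higher and 2.13% lower.

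Over all libraries, genes that ERK signalling is known to induce showed no common direction between the groups. Of 16 such genes 6 had a positive and 10 a negative log2 fold change (median -0.08). FOSL1, an AP-1 subunit, had 62.6 ± 166 CPM in midkine and 5.52 ± 1.82 CPM in vehicle tumours, and its log2 fold change of 3.51 ± 1.29 (edgeR adjusted p = 0.399) includes midkine 3-2 at 505 CPM, against at most 11.5 CPM in the other 14 libraries. IER3, an early response gene, had 1.44 ± 0.74, with 1092 CPM in midkine 3-2 against at most 164 CPM elsewhere. Without midkine 3-2, FOSL1 had 0.41 ± 0.37 and IER3 0.18 ± 0.35, and the median of the 16 was -0.35. These were then the only positive genes of the 16. All others were negative, from -0.002 for FOS to -0.83 for ETV4, and none passed the threshold.

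**Figure D4:**
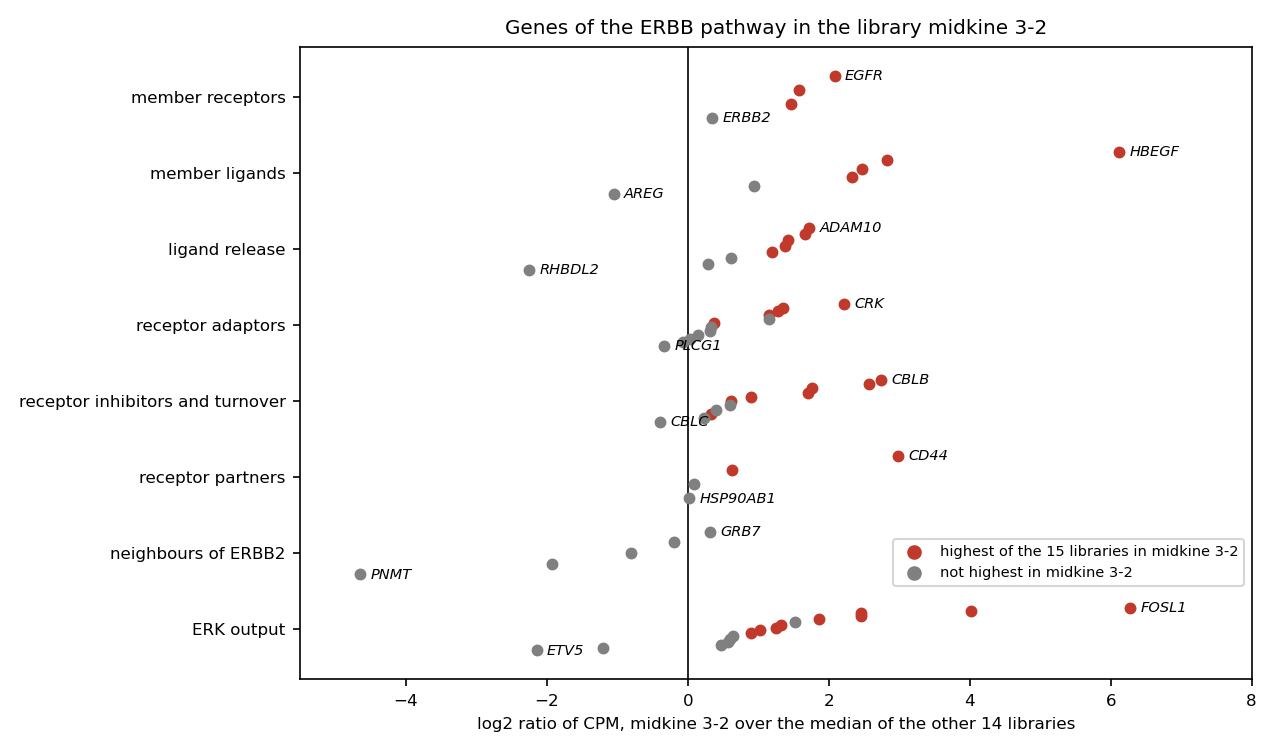
Log2 ratio of the level in midkine 3-2 to the median of the other 14 libraries, for each pathway list (rows, 1 point a gene), with red points where midkine 3-2 was the highest of the 15 libraries. HBEGF and FOSL1 lie farthest to the right at 6.12 and 6.28, and PNMT, near ERBB2 in the genome, farthest to the left at -4.65. PNMT was at 0.122 CPM in midkine 3-2, under the 0.366 CPM that 3 counts stand for there, so its ratio is limited by depth.

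Within midkine 3-2, genes of the same lists were highest of 15 libraries in 5 of 8 for ligand release, 5 of 12 for adaptors, 7 of 11 for inhibitors and turnover, 2 of 4 for partners and 9 of 16 for ERK output, beside 20.6% of all genes. ERRFI1, a feedback inhibitor of EGFR and ERBB2, was at 822 CPM there, against 71.9 to 232 CPM in the other libraries. ADAM17 was at 249 CPM, against 62.9 to 117 CPM. The phosphatase DUSP5, which acts on ERK in the nucleus, was at 197 CPM, against 13.1 to 46.9 CPM. In contrast, ETV5, another ERK-induced transcription factor, was at its lowest there, 58.7 CPM against 76.9 to 567.96 CPM, and ETV4 was at 47.1 CPM within a range of 13.2 to 270 CPM. This library is 1 tumour sample, so these ratios describe it and carry no test.

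Among the protein-coding genes of chromosome 10, ERBB2 lies between Pgap3 and Mien1, in the stretch Stard3, Tcap, Pnmt, Pgap3, Erbb2, Mien1, Grb7 and Ikzf3. An annotated small nuclear RNA gene lies between Erbb2 and Mien1. All 5 tested neighbours had a negative log2 fold change (median -0.36), where 5171 of all 11665 genes did. At an unadjusted p under 0.05 there was 1 of the 5, PGAP3, an enzyme of GPI-anchor remodelling, beside 2.13% of all genes lower. PGAP3 had 51.7 ± 19.0 CPM in midkine tumours and 86.7 ± 25.3 CPM in vehicle tumours, a log2 fold change of -0.75 ± 0.27 (edgeR adjusted p = 0.399), and all 9 midkine libraries lay below the vehicle median. GRB7, an adaptor that binds ERBB2, had -0.41 ± 0.27 and STARD3, a cholesterol transporter, -0.16 ± 0.09. Across the 15 libraries ERBB2 followed GRB7 (r = 0.81, rho = 0.74) and STARD3 (r = 0.65, rho = 0.65) more closely than MIEN1 (r = 0.20, rho = 0.17), given here as a description. In midkine 3-2, PGAP3, MIEN1 and PNMT were each at their lowest of the 15 libraries while ERBB2 and GRB7 were inside the range of the others. PNMT, at 0.122 CPM, was under the 0.366 CPM that 3 counts stand for in that library.

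Levels of the members were then compared with each other over the 15 libraries, on the log2 scale, with Pearson's r and Spearman's rho, 100000 permutations and Benjamini-Hochberg adjustment over the 45 pairs. By both measures, 6 pairs passed. The heterodimer partners ERBB2 and ERBB3 varied together, with r = 0.78 (permutation p = 0.00078, adjusted 0.00702) and rho = 0.85 (permutation p = 0.00023, adjusted 0.00795). The relation was r = 0.71 without the 2 libraries farthest from the ERBB2 median, 0.77 within midkine and 0.87 within vehicle libraries. ERBB3 and the EGFR ligand TGFA gave r = 0.86 (permutation p = 9.0e-05, adjusted 0.00202) and rho = 0.80 (permutation p = 0.00047, adjusted 0.00795), with 0.66 without the 2 farthest libraries, 0.97 within midkine and 0.36 within vehicle libraries.

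ERBB4 followed TGFA, with r = 0.78 (permutation p = 0.00051, adjusted 0.00675) and rho = 0.80 (permutation p = 0.00053, adjusted 0.00795), and its ligand NRG1, with r = 0.75 (permutation p = 0.00134, adjusted 0.00861) and rho = 0.70 (permutation p = 0.00499, adjusted 0.0374). Without the 2 farthest libraries r was 0.74 and 0.62. Within midkine libraries r was 0.84 and 0.79, and within vehicle libraries -0.16 and -0.18. TGFA and NRG1 gave r = 0.90 (permutation p = 7.0e-05, adjusted 0.00202) and rho = 0.72 (permutation p = 0.00358, adjusted 0.0322), with 0.72 without the 2 farthest libraries, 0.93 within midkine and 0.08 within vehicle libraries. AREG and BTC, neighbours on chromosome 14, gave r = 0.73 (permutation p = 0.00224, adjusted 0.0126) and rho = 0.74 (permutation p = 0.00245, adjusted 0.0276), with 0.66 without the 2 farthest libraries and about the same within midkine (0.76) and within vehicle (0.71) libraries. AREG and its other neighbour EREG passed by r (0.76, permutation p adjusted 0.0081) but not by rho (0.60, adjusted 0.0913). The other pairs that passed by r alone were ERBB3 with NRG1 (r = 0.80), ERBB2 with ERBB4 (r = 0.69) and ERBB3 with ERBB4 (r = 0.70).

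**Figure D5:**
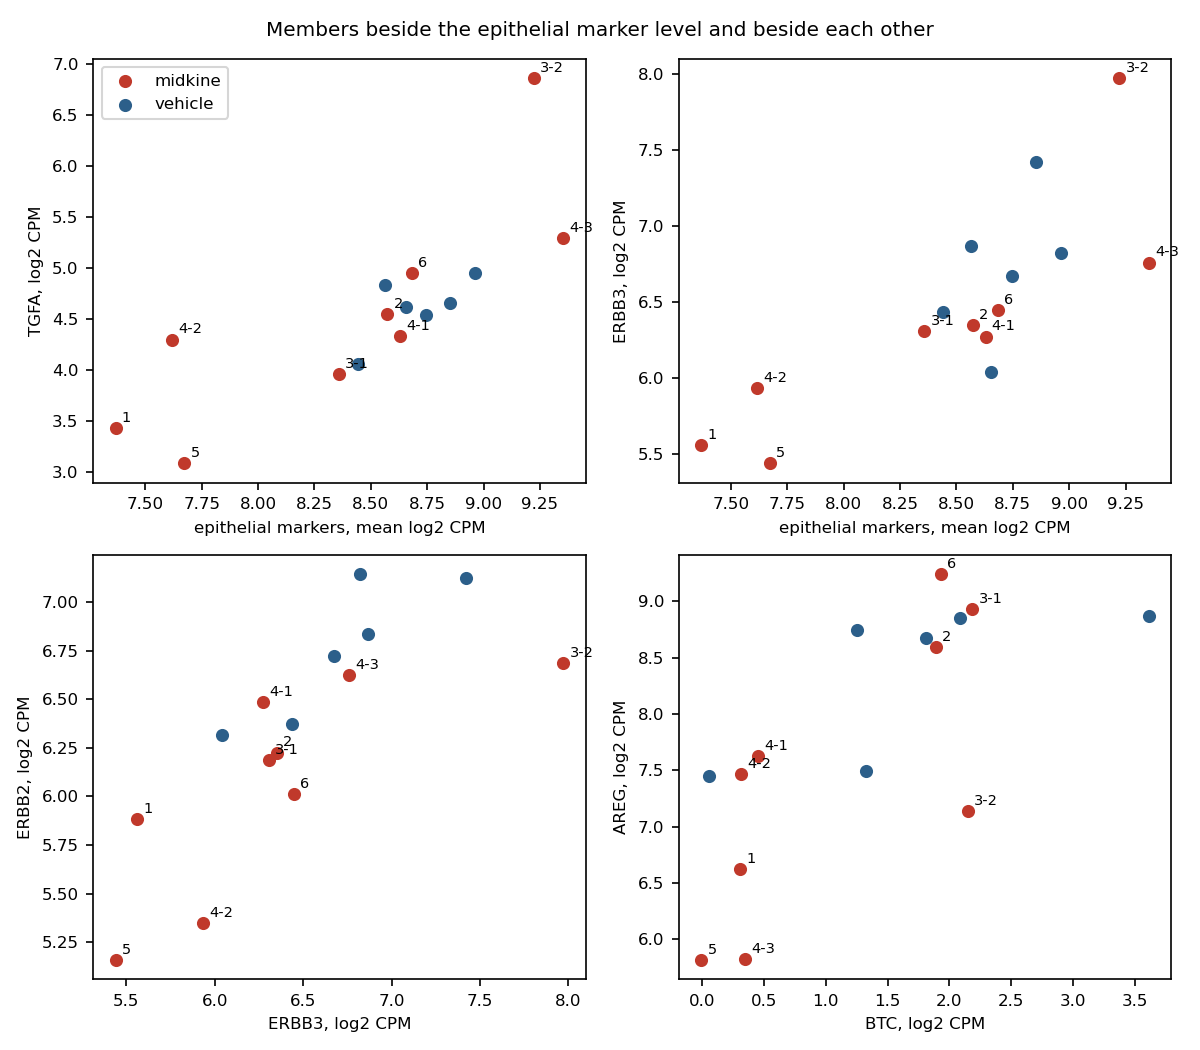
Each point is 1 library (midkine red, vehicle blue, log2 CPM on both axes): TGFA and ERBB3 against the mean level of the epithelial markers, ERBB2 against ERBB3, and AREG against BTC. Points climb together in all panels, with r of 0.79, 0.80, 0.78 and 0.73 over the 15 libraries.

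The mean log2 level of each of 9 marker lists was set against each member (90 relations, adjusted together). Past the threshold by both measures were 3 relations, all with the epithelial list. The r was 0.85 for ERBB4 (permutation p = 6.0e-05, adjusted 0.00315; rho 0.80, adjusted 0.0243), 0.80 for ERBB3 (permutation p = 0.00033, adjusted 0.00594; rho 0.78, adjusted 0.0345) and 0.79 for TGFA (permutation p = 0.00022, adjusted 0.00594; rho 0.86, adjusted 0.0090). Without the 2 libraries farthest from the epithelial median these were 0.90, 0.77 and 0.85. Within midkine libraries they were 0.88, 0.84 and 0.82, and within vehicle libraries 0.44, 0.49 and 0.69. When each of the 15 libraries was left out in turn, the relation passed in 9 runs for ERBB4, 6 for ERBB3 and 14 for TGFA. The other 7 relations that passed by r missed the threshold by rho. With the epithelial list these were NRG1 (r = 0.81, permutation p adjusted 0.00594; rho 0.57, adjusted 0.316) and ERBB2 (r = 0.79, permutation p adjusted 0.0090; rho 0.73, adjusted 0.0641). With the hormone-sensing luminal list they were ERBB2 (r = 0.85, permutation p adjusted 0.00315; rho 0.60, adjusted 0.281), ERBB4 (r = 0.73, permutation p adjusted 0.0285; rho 0.49, adjusted 0.316), AREG (r = 0.70, permutation p adjusted 0.0343; rho 0.71, adjusted 0.0713) and BTC (r = 0.68, permutation p adjusted 0.0488; rho 0.56, adjusted 0.316). Without the 2 libraries farthest from the hormone-sensing median, midkine 5 and midkine 4-2, r was 0.65, 0.37, 0.61 and 0.58 for these 4 members. ERBB2 varied inversely with the endothelial list (r = -0.71, permutation p adjusted 0.0285; rho -0.56, adjusted 0.316; r = -0.56 without the 2 farthest libraries). HBEGF passed with no list, with r = 0.24 for the epithelial one (permutation p = 0.372), and no member passed with the basal, fibroblast, macrophage, T cell, skeletal muscle or Schwann cell lists.

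Among 10455 genes with a mean log2 CPM of at least 2, those ranked most like each member over the 15 libraries were found by rho, as a description. The genes most like TGFA included EPCAM (0.94) and MPZL3 (0.93), and ERBB4 was most like SERPINB5 (0.95), CDH1 (0.93) and PLP2 (0.93). Those most like ERBB3 included FNBP1L (0.93) and MARVELD2 (0.92), the last of which encodes a tight junction protein. ERBB2 was most like DLG3 (0.93), PTGES (0.91) and DYNC1H1 (0.91), and EGFR most like LIMA1 (0.91). HBEGF was most like the ERK and p38 phosphatase DUSP1 (0.90), the urokinase PLAU (0.87) and CDC42EP2 (0.86), and NRG1 was most like LOXL4 (0.93) and the Notch ligand DLL1 (0.90). AREG was most like NAXD (0.91), BTC like RCL1 (0.88), and EREG had no gene above 0.80.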

How the data were processed

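RNA of 15 rat mammary tumour pieces was sequenced as poly(A)-selected libraries with 150-bp read pairs, from 3000 ng of RNA each, as the labels' protocols state. Values start from the authors' deposited counts, whole numbers per gene symbol and library. The build was rn6, per the submitters' processing notes; annotation, strand setting and handling of multi-mapped reads: not given in the sources used here. Genes were filtered with filterByExpr, scaled by TMM and tested with edgeR 4.0.16 (quasi-likelihood, Benjamini-Hochberg over all 11665 genes, threshold 0.05) in R 4.3.3. Standard errors come from the fold change and its F value. Log2 levels use a prior count of 2. DESeq2 1.42.0 and limma 3.58.1 (voom) were alternatives. Relations used permutations in Python 3.11.15. The edgeR fit was tested on simulated counts and the permutation step on simulated normal values, and the other steps had no such test. Libraries of a group differed from each other by more than sampling noise.

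Named genes are the members, the measured other ligands of the family, from each pathway list the 2 genes of smallest p, from marker lists the first 2 measured, and for each member genes among the 3 of highest rho (some are not reported here); genes named for midkine 3-2 and the neighbours PFDN1, CXCL1 and CXCL2 were picked after their values were seen. The members and lists were chosen with earlier results of these data known.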

Additional observations from a re-analysis of the deposited data

Results flagged for a closer look

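In 32 sets of levels (10 members and 6 related genes in each of the 2 groups), the highest or lowest library was compared with the rest of its group by its gap over the group's range. A gap past Dixon's 95% limit was found 9 times, each time at the highest library. For normally distributed values chance gives about 1 in 20 such sets. The levels here were CPM without a log transformation, for which that rate need not hold. Midkine 3-2 stood apart from the other 8 midkine libraries for 6 genes, with EGFR at 66.2 CPM, ERBB3 at 251 CPM, HBEGF at 344 CPM, NRG1 at 278 CPM, TGFA at 116 CPM and EPGN at 6.11 CPM. These 6 come from 1 library and are not independent of each other. Midkine 1 stood apart for EGF, at 15.0002 CPM. Among the vehicle libraries, vehicle 3 stood apart for BTC at 12.0 CPM and vehicle 5 for HBEGF at 7.33 CPM.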

How the results depend on the processing

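DESeq2 called 86 genes higher and 6 lower, against 0 and 0 in edgeR; at an unadjusted p under 0.05 edgeR gave 929 higher and 249 lower, and limma-voom 282 and 320 with none called. No alternative called a member. ERBB2 stayed negative and HBEGF positive in all 24 alternatives. Signs turned as follows. With limma-voom the log2 fold change was -0.13 for EGFR, -0.53 for ERBB4, -0.57 for EREG and -0.077 for NRG1. In the libraries with more than 1 MYH4 count it was -0.075 for EGFR, -0.24 for ERBB4, -0.42 for TGFA and -0.27 for NRG1. Without TMM it was -0.040 for EGFR, where the median of all genes was -0.10, against 0.04 with TMM. Leaving out 1 library gave -0.37 to 0.29 for EGFR, -0.038 to 0.43 for ERBB4, -0.10 to 0.69 for EREG, -0.24 to 0.50 for TGFA and -0.21 to 0.79 for NRG1, the lowest each time without midkine 3-2; ERBB4 was also negative without midkine 4-3, at -0.03. HBEGF ran between 0.96 and 3.76. The cause was not tested.

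Relations between members numbered 6, and 3 to 7 when 1 library was left out (3 without midkine 1 or midkine 4-3); ERBB2 with ERBB3, ERBB3 with TGFA and ERBB4 with TGFA passed in all 15 such runs, AREG with BTC in 12, and ERBB4 with NRG1 and TGFA with NRG1 in 7 each. Relations to marker lists numbered 3, and 0 to 6 (0 without midkine 5, 6 without midkine 3-2, 1 without vehicle 3, midkine 1 or midkine 4-2), and 5 without TMM. With the title number as a replicate block, 0 genes were called, ERBB2 was -0.67 and HBEGF 1.53. Deviations from the group mean were compared between midkine and vehicle libraries of the same number. They correlated between -0.24 and 0.14, so the numbers were not taken to pair midkine with vehicle samples. Whether libraries of the same group that share a number are related was not tested. Summing libraries of 1 title number called none. ERBB4, EREG and BTC, with at most 145 counts in a library, are limited by depth. HBEGF also had only 21 to 91 counts in each of the 14 libraries other than midkine 3-2.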
